A study of Tupaia belangeri with 6 samples.

Results

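The nuclei described here are excitatory neurons of the tree shrew (TS) hippocampus that carry transcripts of PROM1, TMC1 or SAXO1. A nucleus was selected when it held more than 2500 genes, at least 3 unique molecular identifiers (UMIs, each 1 captured RNA molecule) summed over PROM1, TMC1 and SAXO1, at least 1 UMI of CAMK2A or SLC17A7, at most 1 of FIBCD1, TSHZ2 and PROX1 together, and 0 of GAD1, PDGFRA, MOG, AQP4 and PTPRC. Of 37603 nucleus barcodes, 9344 held more than 2500 genes, and 881 met the whole rule. These 881 were 2.34% of all barcodes and 16.9% of the 5223 excitatory nuclei above 2500 genes. The study's own limit removed nuclei above 2500 genes, so that the selected nuclei lie outside the set it analysed. When the gene minimum was dropped, 979 nuclei met the rule, and 98 of them held 2500 genes or fewer.

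Hippocampal nuclei were sequenced with 10× Genomics 3′ chemistry from 3 control TSs and 3 TSs with Alzheimer's-like pathology (ALP), with 1 library per animal. All animals were naturally aged and untreated, with no transgene, and the ALP animals were those of a large aged cohort that were slow in a pipeline maze, while controls came from the faster ones. The sample labels do not give the sex of the animal behind each library, although the study names sex among the covariates of its own model. The whole libraries held 32679011, 19748976 and 35898940 UMIs in Control 1, 2 and 3 and 20119934, 30520809 and 19182981 UMIs in ALP 1, 2 and 3. The selected nuclei held 9981929 UMIs in all, with 37, 84 and 280 nuclei in the control libraries and 195, 148 and 137 in the ALP libraries.

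The hippocampus relays signals from granule cells of the dentate gyrus to CA3 pyramidal neurons and on to CA1, and each field keeps a distinct set of transcripts. PROM1 encodes prominin, a membrane glycoprotein of cell protrusions, TMC1 a channel protein known from mechanotransduction in hair cells of the inner ear, and SAXO1 a protein that binds and stabilizes microtubules. None of them is a classical marker of a hippocampal field, so the question was which field the nuclei carrying them resemble, and whether they differ between ALP and control TSs.

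PROM1 accounted for most of the selection. It was found in 90.1% of the selected nuclei, TMC1 in 41.8% and SAXO1 in 15.9%, and 419 nuclei (47.6%) held PROM1 alone of the 3. PROM1 with TMC1 was found in 263 nuclei (29.9%), and all 3 genes in 40 (4.54%). In the 4342 other excitatory nuclei PROM1, TMC1 and SAXO1 were seen in 26.0%, 5.04% and 2.56%. They were seen in 4.35%, 2.45% and 2.24% of 1471 inhibitory nuclei, which should lack them. In 222 nuclei chosen by MOG, of which 71.6% also held CAMK2A, they were seen in 32.9%, 6.31% and 4.50%. Median depth was 10279 UMIs in the selected, 8462.5 in the other excitatory, 7721 in the inhibitory and 10734.5 in the MOG-chosen nuclei. TMC1 reached 18 UMIs and SAXO1 45 UMIs in a single nucleus. The rule has a threshold, and 234 nuclei stood at it with exactly 3 UMIs of the 3 genes, while 380 stood just below it with 2. NECTIN3, a cell adhesion gene not used by the rule, was at 149 CPM (UMIs scaled to a sum of 1000000) in the former and 147 CPM in the latter, pooled over libraries.

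Excitatory markers were found, in part by choice of the rule, while those of deep cortical layers were mixed. CAMK2A, the calcium kinase of excitatory synapses, was found in 95.01% of the selected nuclei and SLC17A7, the vesicular glutamate transporter, in 61.5%, both by choice of the rule. Of the excitatory markers outside the rule, CHN1, a Rac GTPase-activating protein, stood at 702 CPM and SV2B, a synaptic vesicle protein, at 358 CPM, pooled over libraries. Of 5 such genes tested below, 2 were above 0 against PROX1-chosen, 4 against TSHZ2-bearing and 5 against other excitatory nuclei. Only 1 of them was called, higher than in the PROX1 nuclei. Of the genes that mark deep cortical layers, TLE4 gave 8 UMIs, FOXP2 13 UMIs and THEMIS 0 UMIs over all 881 nuclei, while FEZF2 gave 317 UMIs and HS3ST4, a sulfotransferase on the same list as TLE4, 10378 UMIs. GAD2 and SLC32A1, which inhibitory neurons use, and NRGN are also listed at 0 in every barcode. A listing at 0 therefore does not show that the RNA was absent. GAD1 itself gave 250 UMIs in the whole series, so that its absence removed few inhibitory nuclei. The most abundant interneuron marker, ADARB2, was at 129 CPM in the selected nuclei and 5094 CPM in the inhibitory nuclei, which were themselves chosen by ADARB2 and NXPH1.

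Control 1 stood apart from the other 5 libraries. It gave 37 nuclei, of which 32.4% held TMC1 or SAXO1, while the other libraries ranged from 41.6% to 68.2%. No barcode was shared between libraries within the selected nuclei, and in the 15 pairs of libraries at most 0.465% of the barcodes of the smaller library were shared. Of the 881 nuclei 40 were marked as doublets by simulated pairs.

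The share of selected nuclei varied widely within both groups. Among nuclei with more than 2500 genes they made up 2.10% (exact 95% binomial interval 1.48 to 2.89) in Control 1, 6.02% (4.83 to 7.40) in Control 2 and 12.7% (11.3 to 14.1) in Control 3. In ALP 1, 2 and 3 they made up 16.8% (14.7 to 19.0), 7.69% (6.54 to 8.97) and 15.3% (13.0 to 17.9). The intervals cover counting error only. Control 1 and 2 were the lowest, but Control 3 lay above ALP 2, so that the groups overlapped. The mean share was 6.93% ± 5.35 (SD) over the 3 control and 13.3% ± 4.88 (SD) over the 3 ALP libraries, a difference of 6.33 percentage points (two-sided exact permutation test, p = 0.2, adjusted over 15 comparisons p = 0.375). The difference was 3.91 points without Control 1, and leaving out each library in turn gave up to 9.20 points (without Control 3). The smallest p that 3 against 3 libraries allow is 0.1. As a share of all barcodes the values were 0.421%, 2.79% and 3.51% in control and 3.83%, 2.07% and 2.45% in ALP libraries.

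**Figure D1:**
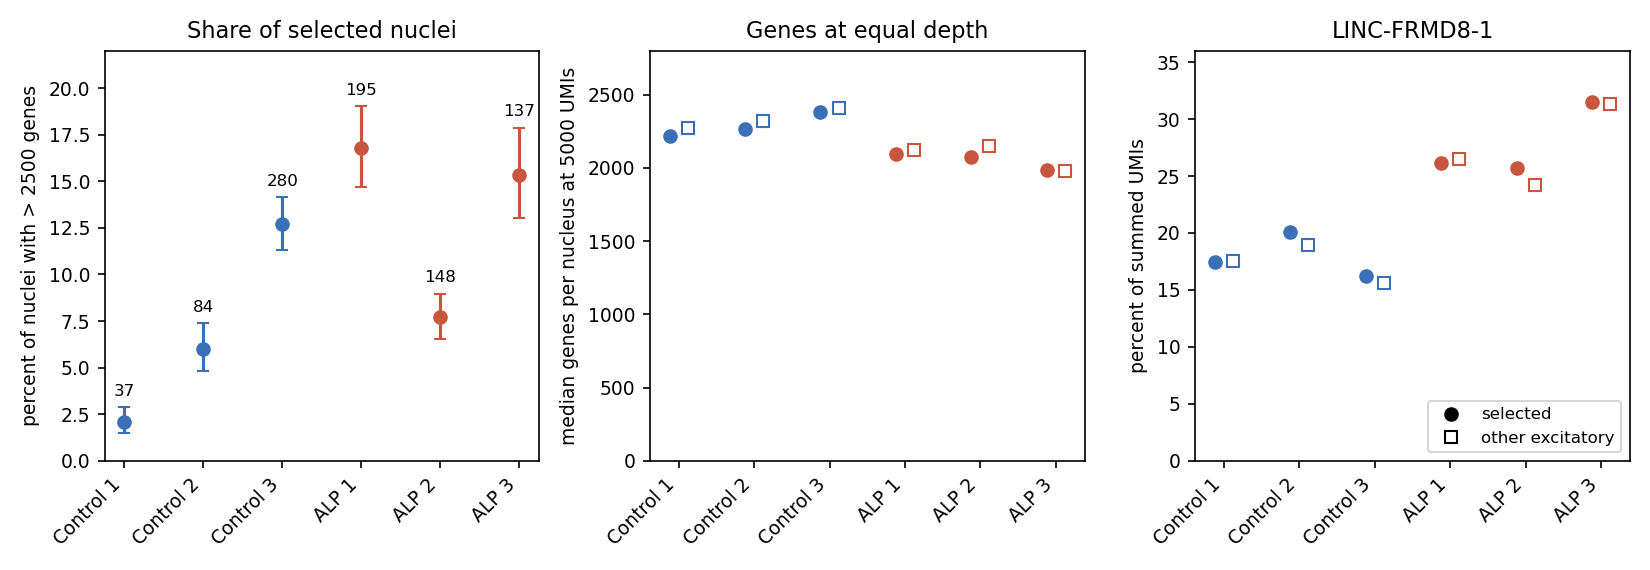
The left panel plots the percent of nuclei above 2500 genes that were selected, per library, with exact 95% binomial intervals and the number of nuclei above each point. The middle panel plots the median number of genes per nucleus expected at 5000 UMIs and the right panel the percent of UMIs taken by LINC-FRMD8-1, with filled circles for selected and open squares for other excitatory nuclei, blue for control and red for ALP. Shares overlap between the groups, while both other measures separate them in both kinds of nuclei.

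When all nuclei above 2500 genes were clustered on their 2000 most variable genes, 499 of the 881 selected nuclei (56.6%) fell into a single cluster of 1110 nuclei. That cluster was led by TMC1, SAXO1, L1RE1li231, KCNQ5, MGAT4Cli1 and NECTIN3 in order of fold. TMC1 and SAXO1 were used by the rule, so that their lead and the grouping are not independent of the choice of nuclei. A clustering without the rule genes was not tested. The cluster held 18.9%, 56.0% and 65.4% of the selected nuclei of Control 1, 2 and 3. In ALP 1, 2 and 3 it held 47.2%, 64.9% and 54.0%, with Control 1 far below the rest. A second cluster, with CCN6, SULT1C4li2 and CALB1 among its leading genes, held 95 selected nuclei (10.8%). Its share of the selected nuclei was 5.41%, 4.76% and 1.07% in Control 1, 2 and 3 and 23.6%, 10.1% and 18.2% in ALP 1, 2 and 3, without overlap, so that the selected nuclei of both groups were drawn from clusters in different proportions. Of all nuclei above 2500 genes, selected or not, this second cluster held 22 of 1760, 148 of 1395 and 32 of 2208 in Control 1, 2 and 3. In ALP 1, 2 and 3 it held 315 of 1163, 469 of 1925 and 208 of 893, so that the groups separated there too. The libraries were not integrated before clustering. Among the 20 clusters that held selected nuclei, shares did not overlap between the groups in 3. At a finer resolution the cluster with most selected nuclei separated the groups too, with values given under the processing below. Another cluster, led by GPR149, held 57 (6.47%). The remaining nuclei were spread over other clusters, so that 4 of 24 clusters held none. In Control 1, 13 of the 37 nuclei lay in a cluster of which 306 of 629 nuclei were from that library.

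The nuclei with TMC1 or SAXO1 and those with PROM1 alone differed in level of genes that the rule did not use, given here as values pooled over libraries without a test. KCNQ5, a potassium channel of the M-current, was at 2192 CPM in the former and 1246 CPM in the latter. NECTIN3 was at 233 and 150 CPM. HMG20B and HS3ST4 differed little, at 70.8 and 66.2 CPM and at 1045 and 1033 CPM. Libraries differed in the share of nuclei with TMC1 or SAXO1, from 32.4% in Control 1 to 68.2% in ALP 2. KCNQ5 in the selected nuclei ran from 586 CPM in Control 1 to 2247 CPM in Control 3. The part of this mix of libraries in the pooled values was not tested.

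To ask which field the nuclei match, UMIs were summed per library and compared within libraries with 74 nuclei chosen by PROX1, the transcription factor of dentate granule cells, with 262 nuclei chosen by FIBCD1 and TSHZ2, and with the other 4342 excitatory nuclei. Only Control 1, Control 3 and ALP 2 held at least 10 PROX1 nuclei, while all 6 libraries entered the other comparisons. The FIBCD1 and TSHZ2 choice rested nearly wholly on TSHZ2, at 1096 CPM there, since FIBCD1 was at 6.74 CPM and cannot mark CA1 in these data. A gene was called at an adjusted p under 0.05 in edgeR's quasi-likelihood test and a log2 fold change beyond 1. Against the PROX1 nuclei 778 of 6921 features were called (11.2%), of which 410 were higher (5.92%) and 368 lower (5.32%) in the selected nuclei. Against the TSHZ2-bearing nuclei 870 of 10147 were called (8.57%), with 448 higher (4.42%) and 422 lower (4.16%). Against the other excitatory nuclei 925 of 19591 were called (4.72%), with 471 higher (2.40%) and 454 lower (2.32%). The counts of list members below are read beside these shares. The other excitatory nuclei include the PROX1 and TSHZ2-bearing nuclei, so that the 3 comparisons are not independent. The p-values measure the spread between libraries, and the nuclei were chosen on their own counts, so that genes of the rule are left out of all counts of list members.

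Members of the CA3 list were called higher in the selected nuclei in each of the 3 comparisons, and none was called lower. Of all features 5.92%, 4.42% and 2.40% were called higher against the PROX1, TSHZ2-bearing and other excitatory nuclei. Of its 9 genes 6 were tested against the other excitatory nuclei, where NECTIN3, GRIK4 and CPNE4 were called higher, with a median log2 fold change of 0.79 beside 0.01 over all features. Against the PROX1 nuclei 2 of 4 tested genes were higher (median 1.19, all features 0.01), and against the TSHZ2-bearing nuclei 1 of 6 was (median 0.35, all features 0.02), with BOK, DKK3 and CFAP299 at -0.17, -0.09 and -0.02 there. COL6A1 and IYD, also on the list, gave 1 and 0 UMIs.

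NECTIN3, an adhesion molecule of the mossy fibre synapse onto CA3 dendrites, was the clearest of them. It stood at 69.8, 203 and 244 CPM in the selected nuclei of Control 1, 2 and 3 and at 155, 233 and 163 CPM in those of ALP 1, 2 and 3. In the TSHZ2-bearing nuclei it stood at 26.6, 47.3 and 39.4 CPM in the control and 31.6, 39.8 and 32.1 CPM in the ALP libraries. Every selected value lay above every value of the TSHZ2-bearing nuclei, and Control 1 was the lowest of the selected ones. The log2 fold change was 2.37 ± 0.18 (SE, edgeR adjusted p = 3.0e-08) against these, 2.74 ± 0.30 (adjusted p = 0.00011) against the PROX1 nuclei and 1.16 ± 0.08 (adjusted p = 9.7e-10) against the other excitatory nuclei.

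GRIK4, a kainate receptor subunit enriched in CA3, stood at 78.2, 242 and 300 CPM in control and 161, 239 and 160 CPM in ALP libraries. Control 1 was again the lowest. GRIK4 was higher than in the other excitatory nuclei by a log2 fold change of 1.10 ± 0.10 (edgeR adjusted p = 3.5e-08), while its values of 0.51 ± 0.24 and 0.89 ± 0.19 against the PROX1 and TSHZ2-bearing nuclei did not pass both limits. CPNE4, a calcium-dependent membrane-binding protein, stood at 146, 194 and 227 CPM in control and 180, 265 and 228 CPM in ALP libraries. It was called against the PROX1 nuclei (1.21 ± 0.28, edgeR adjusted p = 0.013) and the other excitatory nuclei (1.18 ± 0.09), with 0.72 ± 0.17 against the TSHZ2-bearing nuclei.

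**Figure D2:**
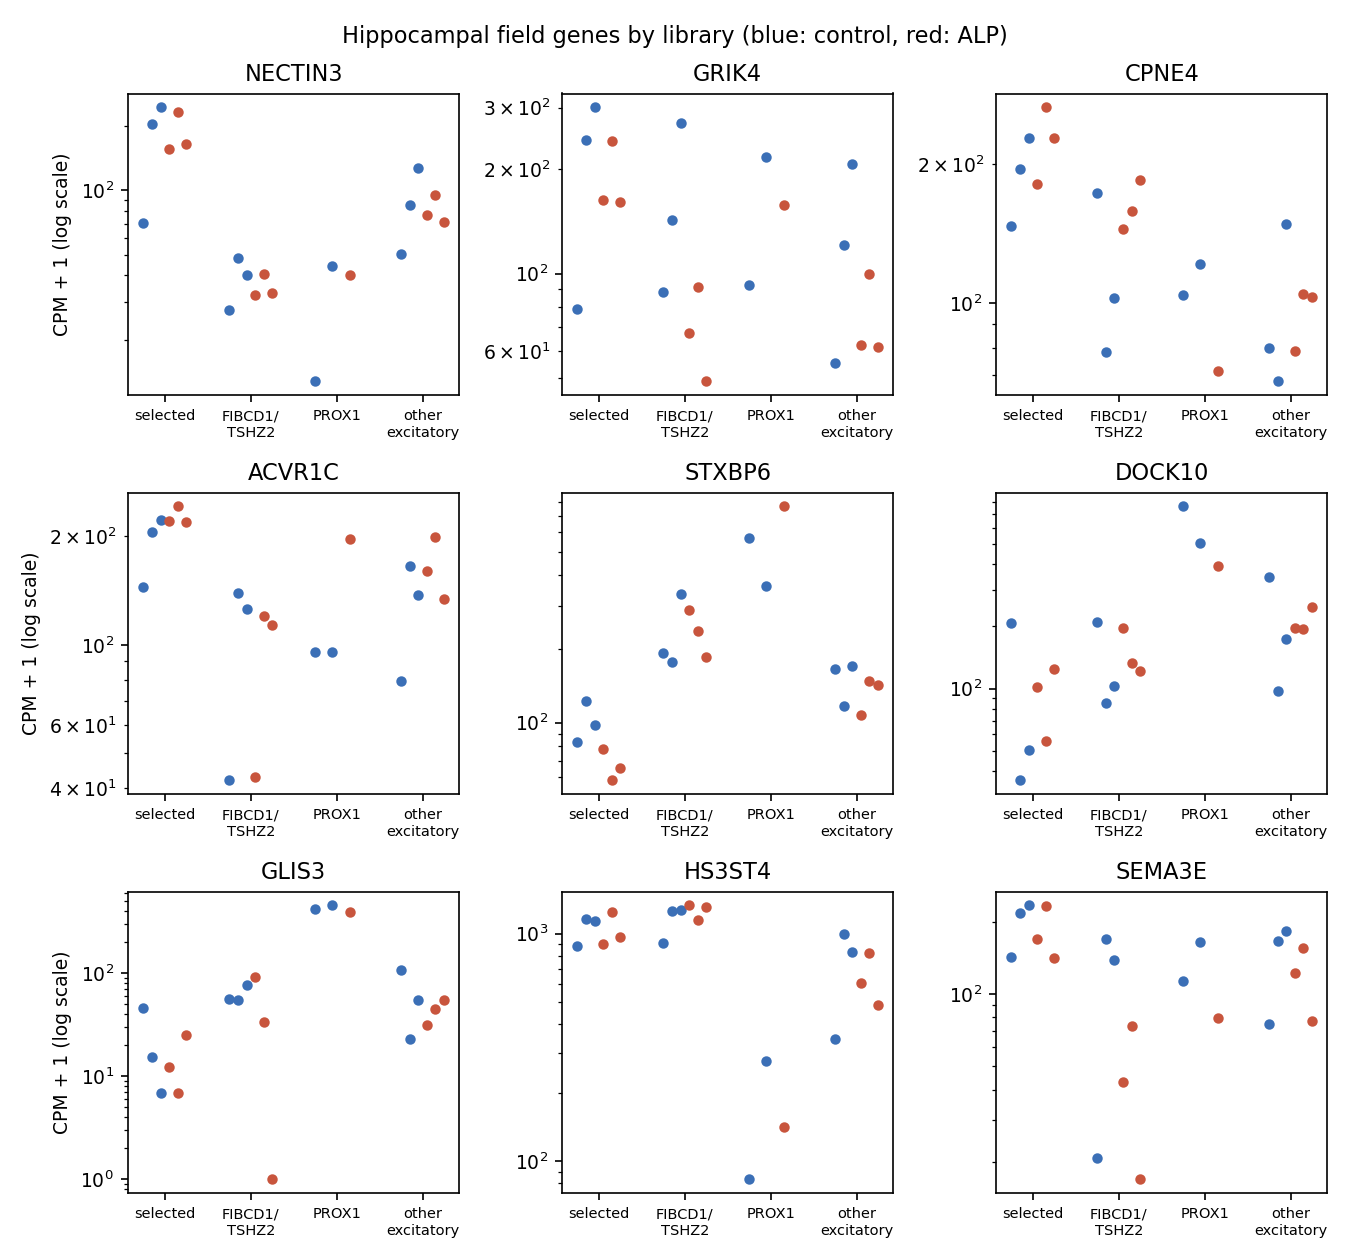
Each panel plots 1 gene as CPM + 1 on a log axis of its own range, with 1 point per library, blue for control and red for ALP, in the selected, FIBCD1/TSHZ2, PROX1 (3 libraries) and other excitatory nuclei. NECTIN3 lies higher in the selected than in the FIBCD1/TSHZ2 and PROX1 nuclei, GLIS3, DOCK10 and STXBP6 lie highest in the PROX1 nuclei, and HS3ST4 overlaps between the selected and FIBCD1/TSHZ2 nuclei.

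Dentate granule genes were low in the selected nuclei, in part by choice. The rule allowed at most 1 UMI of FIBCD1, TSHZ2 and PROX1 together, while the PROX1 nuclei held at least 3 of PROX1. Genes found together with PROX1 are therefore lower by this choice, also where they are not rule genes. The other excitatory nuclei kept nuclei that the rule removed for these 3 genes. Of all features 5.32%, 4.16% and 2.32% were lower than in the PROX1, TSHZ2-bearing and other excitatory nuclei. Of 6 tested outside the rule, 5 were lower than in the PROX1 nuclei and 0 higher (median -2.54), 3 were lower than in the TSHZ2-bearing nuclei (median -0.88), and 3 of 7 were lower than in the other excitatory nuclei (median -0.96). GLIS3, a zinc finger transcription factor, stood at 44.4, 14.4 and 5.93 CPM in control and 11.3, 5.79 and 24.1 CPM in ALP libraries. The PROX1 nuclei held 416, 457 and 391 CPM of it in Control 1, Control 3 and ALP 2, far above all selected values, and the log2 fold change was -4.94 ± 0.46 (edgeR adjusted p = 3.7e-05). STXBP6, which binds vesicle fusion proteins, differed by -2.62 ± 0.29, DOCK10 by -2.46 ± 0.27 and C1QL3, a secreted synapse organizer, by -3.20 ± 0.48. DOCK10 was at 207 CPM in Control 1 and between 35.0 and 123 CPM in the other 5 libraries.

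CA1 genes did not move together. Of 4 tested against the TSHZ2-bearing nuclei 1 was higher and 1 lower (median -0.21). ACVR1C, an activin receptor, stood at 144, 204 and 220 CPM in control and 220, 241 and 217 CPM in ALP libraries and was higher than in the TSHZ2-bearing nuclei by 1.32 ± 0.18 (edgeR adjusted p = 3.5e-05). Against the other excitatory nuclei 0 of 6 CA1 genes were higher and 3 lower (median -0.46), and against the PROX1 nuclei 0 of 4 were called in either direction, with all 4 above 0 (median 0.74).

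The direction of the CA2 genes depended on the set. Against the TSHZ2-bearing nuclei 3 of 4 were above 0 (median 0.46), against the PROX1 nuclei 1 of 2 (median -1.15) and against the other excitatory nuclei 3 of 6 (median -0.10). CACNG5, an AMPA receptor auxiliary subunit, was higher than in the TSHZ2-bearing nuclei (1.92 ± 0.37) and the only one of 4 called there, and RGS14 was lower than in the PROX1 nuclei (-2.31 ± 0.53). Of the subiculum genes, SEMA3E, a secreted guidance cue, was higher than in the TSHZ2-bearing nuclei by 1.58 ± 0.24 and SLC17A6, a vesicular glutamate transporter, lower (-2.24 ± 0.36). The other 2 of 4 tested were not called.

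The deep-layer genes differed in direction between the sets compared. Against the other excitatory nuclei 0 of 7 genes of the FEZF2 and TLE4 list were higher and 2 lower (median -0.37). Of the THEMIS list 0 of 5 were higher there and 1 lower (median -0.82), and of 2 layer 6b genes 0 and 1 (median -0.99). HS3ST4, a heparan sulfate sulfotransferase that marks corticothalamic and some hippocampal neurons, was abundant, at 877, 1158 and 1141 CPM in control and 897, 1240 and 961 CPM in ALP libraries. It was higher than in the PROX1 nuclei by 3.04 ± 0.27 (edgeR adjusted p = 3.2e-05), with -0.06 ± 0.11 against the TSHZ2-bearing nuclei. Of 3 genes of the FEZF2 and TLE4 list tested against the PROX1 nuclei, HS3ST4 and FEZF2 were higher and CRYM lower (median 1.60). Of 6 tested against the TSHZ2-bearing nuclei, 0 were higher and 3 lower, namely FOXP2, SULF1 and NXPH2 (median -1.54). Of the THEMIS list 0 of 4 were called against the TSHZ2-bearing nuclei and 0 of 5 were higher than in the PROX1 nuclei, where OPRK1, an opioid receptor, and SYNPR, a synaptic vesicle protein, were lower. Of 5 layer 6b genes 2 could be tested, of which MOXD1 was lower than in both sets and TRPM3 lower than in the PROX1 nuclei (median -2.20 there and -1.30 against the TSHZ2-bearing nuclei). Of 5 genes of upper entorhinal layers tested against the TSHZ2-bearing nuclei CUX2 and RORB were lower, and against the PROX1 nuclei 1 of 2 was lower. Of 2 mossy cell genes tested against the PROX1 nuclei DLC1 was higher and CALCRL lower, and of 4 tested against the TSHZ2-bearing nuclei ARHGAP24 and CALCRL were lower and 0 higher (median -0.77). Of 5 Cajal-Retzius genes 0 could be tested against either set, and NHLH2, a transcription factor with 100 UMIs, was at 0.75 ± 0.24 against the other excitatory nuclei (edgeR adjusted p = 0.040), below the limit for a call.

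Across all features, 144 of 6831 tested against both sets were higher in the selected nuclei than in either (2.11%) and 117 were lower (1.71%), outside the rule genes. Of these 86 and 97 are named genes, and the rest are features annotated as antisense or long intergenic transcripts. The 15 highest by the smaller of both fold changes, with antisense and intergenic features left out and among those at 50 CPM or more and higher in every library, were HMG20B, CKMT2, NECTIN3, TRHDE, PPFIBP2, SULT1C4li2, LAMA2, TSORFli2584, TMEM9B, EPHB1, LRRK1, CHRD, L1RE1li231, MGAT4Cli1 and TSORFli686. Names ending in li with a number are gene copies by their annotation, between which reads may be split, and their values are uncertain.

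HMG20B, a subunit of the LSD1-CoREST chromatin complex, led them. It stood at 67.7, 59.3 and 65.6 CPM in the selected nuclei of the control and 88.0, 67.6 and 81.6 CPM in those of the ALP libraries. In the TSHZ2-bearing nuclei it lay between 0 and 11.95 CPM in all 6 libraries. The log2 fold change was 3.33 ± 0.28 (edgeR adjusted p = 1.4e-07) against these and 3.39 ± 0.54 (adjusted p = 0.0013) against the PROX1 nuclei. CKMT2, a mitochondrial creatine kinase, followed with 2.63 ± 0.38 and 2.37 ± 0.60, but was at 14.8, 33.2 and 40.1 CPM in control and 75.6, 108 and 62.7 CPM in ALP libraries. These did not overlap, and the ALP difference of 1.36 ± 0.32 was not called (edgeR adjusted p = 0.073).

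Further genes of the 15 had diverse roles. Against the other excitatory nuclei 9 of the 15 were also called higher, while TRHDE, CHRD, TMEM9B, TSORFli2584, TSORFli686 and SULT1C4li2 were not, with log2 fold changes of 0.79, 0.63, 0.64, 0.82, 0.85 and 0.21. TRHDE, the peptidase that degrades thyrotropin-releasing hormone, was higher by 2.11 ± 0.21 and 2.41 ± 0.30 than in the TSHZ2-bearing and PROX1 nuclei. LAMA2, a laminin chain, was higher by 2.02 ± 0.25 and 2.48 ± 0.46. CHRD, which encodes the BMP antagonist chordin, was higher by 1.85 ± 0.20 and 1.88 ± 0.36. EPHB1, an ephrin receptor of growing axons, was higher by 1.96 ± 0.25 and 2.40 ± 0.39. PPFIBP2, a liprin of synaptic scaffolds, TMEM9B, a lysosomal membrane protein, and LRRK1, a kinase related to LRRK2, were higher by between 1.92 and 2.18.

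**Figure D3:**
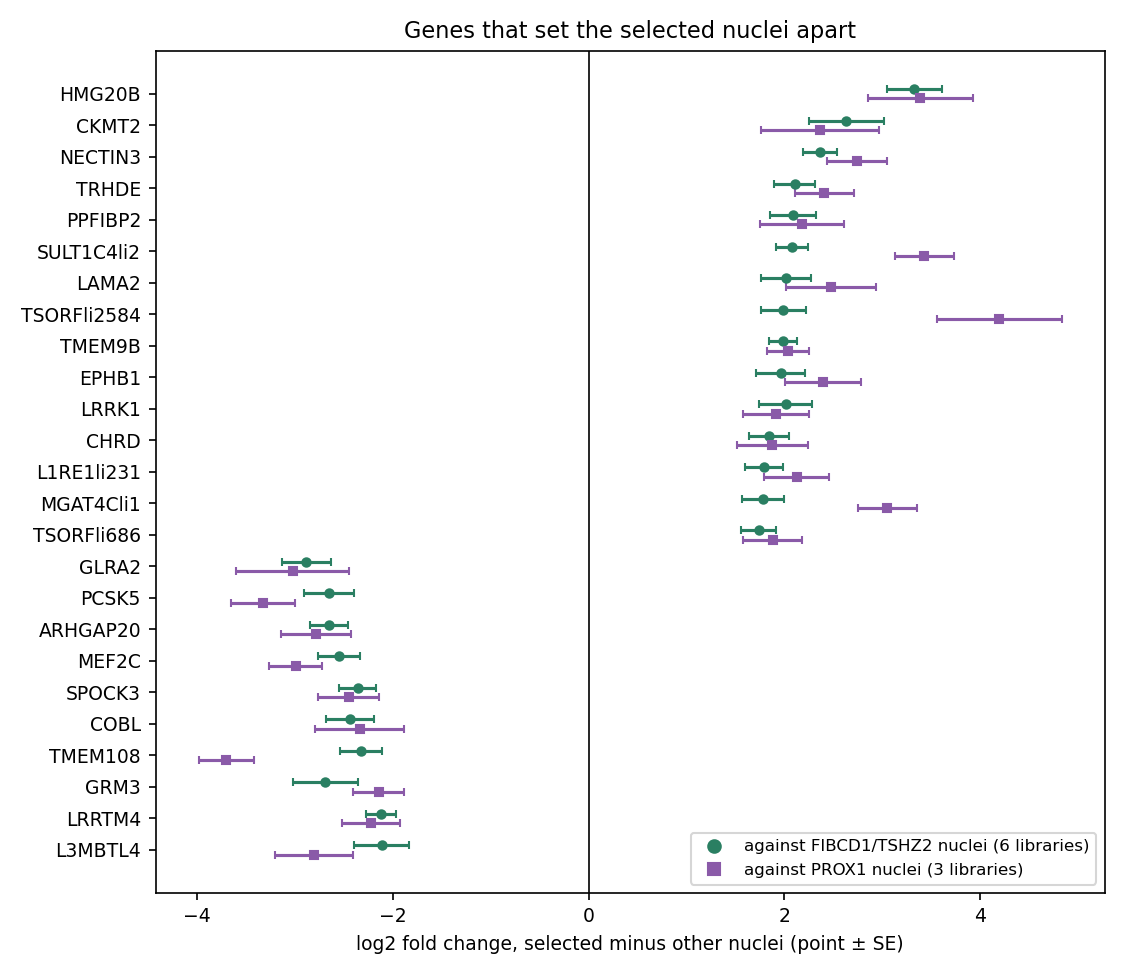
Points give the log2 fold change of the selected nuclei against FIBCD1/TSHZ2 nuclei (green circles, 6 libraries) and against PROX1 nuclei (purple squares, 3 libraries), with bars of 1 SE, for the 15 genes highest and the 10 lowest against both. The 15 lie between 1.74 and 4.20 and the 10 between -3.70 and -2.11, on 1 side of 0 by choice.

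The 10 genes lowest against both sets were GLRA2, PCSK5, ARHGAP20, MEF2C, SPOCK3, COBL, TMEM108, GRM3, LRRTM4 and L3MBTL4. MEF2C, an activity-regulated transcription factor, stood at 93.0, 107 and 58.8 CPM in control and 52.5, 41.2 and 61.9 CPM in ALP libraries. In the TSHZ2-bearing nuclei it lay between 277 and 548 CPM, above all selected values, and the log2 fold change was -2.55 ± 0.21 (edgeR adjusted p = 1.1e-07). LRRTM4, a postsynaptic adhesion protein, was at 983 CPM in Control 1 and between 234 and 383 CPM in the other selected libraries, and differed by -2.12 ± 0.15 from the TSHZ2-bearing nuclei. GRM3, a metabotropic glutamate receptor, showed the same single high library, at 82.5 CPM in Control 1 and between 15.4 and 29.2 CPM elsewhere. COBL, an actin nucleator, was at 57.1 CPM in Control 1 and between 9.65 and 17.2 CPM elsewhere.

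Axon guidance genes were called in both directions. Of 28 genes 25 were tested against each set, with 6 higher and 4 lower than in the PROX1 nuclei (median 0.31, with 11.2% of all features called) and 6 higher and 3 lower than in the TSHZ2-bearing nuclei (median 0.38, with 8.57% of all features called). Against the other excitatory nuclei 1 of 28 was higher and 1 lower (median 0.03, with 4.72% of all features called). ROBO2, a receptor for the repellent SLIT proteins, was the most abundant, at 8231, 5533 and 7932 CPM in control and 7120, 7123 and 6895 CPM in ALP libraries. The TSHZ2-bearing nuclei held between 2322 and 3422 CPM of it, below all selected values, with log2 fold changes of 1.49 ± 0.11 (edgeR adjusted p = 2.0e-08) against these and 1.80 ± 0.18 (adjusted p = 5.5e-05) against the PROX1 nuclei. EPHA4, UNC5C and NRP1, receptors for ephrins, netrins and class 3 semaphorins, were higher than in both sets, by 1.93 ± 0.15, 1.28 ± 0.16 and 1.23 ± 0.13 against the TSHZ2-bearing nuclei. UNC5D, a related netrin receptor, was lower than in both, by -1.58 ± 0.23 and -2.79 ± 0.25.

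The receptor and channel lists are read beside the 8.57% of all features called against the TSHZ2-bearing nuclei. Of 12 ionotropic glutamate receptor genes tested against the TSHZ2-bearing nuclei, GRIK3 (-3.13 ± 0.35) and GRIA4 (-1.52 ± 0.16) were lower, while 8 of the 12 were above 0 (median 0.31). Of 6 metabotropic ones, GRM3, GRM4 and GRM8 were lower (median of the 6 -1.35, all features 0.02), and GRM8 by the widest margin (-3.48 ± 0.13, edgeR adjusted p = 2.0e-12). GRM8 lay between 11.3 and 48.3 CPM in the selected nuclei. Of 21 potassium channel genes KCNQ5 was the only one higher than in the TSHZ2-bearing nuclei (1.58 ± 0.25), with KCNH5, KCNH7 and KCNIP1 lower. KCNQ5 stood at 586, 2154 and 2247 CPM in control and 1336, 2180 and 1050 CPM in ALP libraries, and the value of Control 1 lay within the 442 to 793 CPM of the TSHZ2-bearing nuclei. Of 16 calcium channel genes CACNB4 was lower (-1.57 ± 0.18, median of the list 0.25), and of 15 tested against the PROX1 nuclei CACNA1B and CACNA1G were higher (median 0.58). Both counts were near the 8.57% and 11.2% of all features called.

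Calls in this paragraph are read beside the 11.2%, 8.57% and 4.72% of all features called against the PROX1, TSHZ2-bearing and other excitatory nuclei. Of 20 vesicle release genes tested against the TSHZ2-bearing nuclei 3 were lower, SYN3 and CPLX1 among them, and 0 higher (median 0.09). Of 18 tested against the PROX1 nuclei SYN3 was lower and NRXN3, a presynaptic adhesion protein, higher (1.80 ± 0.25), a count near the share of all features. Postsynaptic scaffolds HOMER1 and HOMER2 were higher than in the PROX1 nuclei (1.61 ± 0.28 and 2.41 ± 0.55), with the other 11 of 13 not called, a count near the 11.2% of all features. Of 3 immediate-early genes tested against the PROX1 nuclei NR4A3 (3.47 ± 0.63) and HOMER1, which is on both lists, were higher, and of 4 tested against the TSHZ2-bearing nuclei BDNF, a neurotrophin, was higher (1.23 ± 0.39). Of 10 tested against the other excitatory nuclei NR4A3 was higher and JUN lower (-1.14 ± 0.33). Of 4 relatives and partners of the rule genes tested against the TSHZ2-bearing nuclei, TMC2 was higher (1.86 ± 0.34). PCDH15, the tip link cadherin that works with TMC1 in hair cells, was lower there (-1.55 ± 0.13). TMC2 was uneven, at 6.34, 76.3 and 19.8 CPM in control and 35.0, 84.9 and 18.9 CPM in ALP libraries. Of 9 primary cilium genes, which were listed because prominin is found on cilia, 0 were called against either set. Of 22 amyloid and tau genes 11, 15 and 18 were tested against the PROX1, TSHZ2-bearing and other excitatory nuclei, and 0 were called by edgeR, with 4, 5 and 5 at an unadjusted p under 0.05. Of 9 oxidative phosphorylation genes ATP5MC3 and ATP5PO were lower than in the PROX1 nuclei, and of 4 heat shock genes 0 were called. ST6GALNAC5, a sialyltransferase, was the only one of the 5 glutamatergic genes that the study names to be called, higher than in the TSHZ2-bearing nuclei (1.16 ± 0.12).

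Markers of other cell types were low, in part by choice, since the rule required 0 UMIs of GAD1, PDGFRA, MOG, AQP4 and PTPRC. The summed interneuron list was 93.0, 70.1 and 232 CPM in control and 68.3, 77.2 and 173 CPM in ALP libraries beside 5306 CPM in the inhibitory nuclei, with ADARB2 the most abundant and 3 of 8 genes at 0. Since ADARB2 was used to choose the inhibitory nuclei, its level there was set by that choice. The list without ADARB2 summed to 9.62 CPM in the selected and 212 CPM in the inhibitory nuclei, pooled over libraries. The oligodendrocyte list was at 98.5 CPM pooled, of which ST18 made 68.4 CPM, against 1827 CPM in nuclei chosen by MOG, with 2 of 7 genes at 0. Of those nuclei 71.6% also held CAMK2A, so that 1827 CPM is not the level of oligodendrocytes alone. The astrocyte list summed to 71.8 CPM, led by SLC1A3, and the microglia list to 22.4 CPM, led by P2RY12. These lists summed to 57.3 and 17.7 CPM in the other excitatory and 68.7 and 33.9 CPM in the inhibitory nuclei. The selected nuclei were thus not lower than the other excitatory nuclei in either. Precursor, vascular and ependymal lists summed to 4.51, 31.9 and 81.4 CPM, beside 16.4, 37.0 and 143 CPM in the other excitatory nuclei. None of these marker genes was called higher in the selected nuclei in any of the comparisons, and the part of free RNA in these values was not tested.

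Depth and RNA composition moved with the ALP group, and are given before the comparison of genes. The median UMI count of the selected nuclei was 12081, 12057.5 and 11388.5 in Control 1, 2 and 3 and 9223, 10765 and 9282 in ALP 1, 2 and 3. All 3 control libraries lay above all ALP libraries (exact permutation test, p = 0.1, the smallest possible, adjusted p = 0.214). At an equal 5000 UMIs the median number of genes was 2287 ± 83.4 (SD) over the 3 control and 2051 ± 58.2 (SD) over the 3 ALP libraries, and in the other excitatory nuclei 2331 and 2083. The long intergenic feature LINC-FRMD8-1 alone took 17.5%, 20.05% and 16.3% of the UMIs of the selected nuclei in control and 26.2%, 25.7% and 31.5% in ALP libraries. In the other excitatory nuclei its share was 17.5%, 19.0% and 15.6% in control and 26.5%, 24.2% and 31.3% in ALP libraries, so that the groups separated in both kinds of nuclei. Its part in the comparison of genes was not tested.

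Few genes passed the test between ALP and control TSs within the selected nuclei, and the part of the unequal cluster shares in this comparison was not tested. With edgeR's quasi-likelihood test on sums per library, 4 of 11080 features were called at an adjusted p under 0.05 and a log2 fold change beyond 0.25 (0.0361%), 1 higher (0.00903%) and 3 lower (0.0271%) in ALP. At an unadjusted p under 0.05 there were 2050 features (18.5%), 886 higher and 1164 lower, and for 2524 features (22.8%) the values of both groups did not overlap. None of the 4 was called without Control 3, ALP 1 or ALP 3, where the count was 0, with 1400, 1621 and 1638 features at an unadjusted p under 0.05. The count was 444 without Control 1, 132 without Control 2 and 260 with DESeq2. Of the 4 called features only ARHGAP42 is a named gene of 1 copy.

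ARHGAP42, a GTPase-activating protein for RhoA, fell in ALP TSs. It stood at 112, 85.3 and 94.7 CPM in Control 1, 2 and 3 and at 13.0, 25.7 and 18.05 CPM in ALP 1, 2 and 3, with a wide gap between the groups. The log2 fold change was -2.35 ± 0.27 (edgeR adjusted p = 0.025). In the other excitatory nuclei it was at 164, 84.0 and 153 CPM in control and 32.4, 60.8 and 72.5 CPM in ALP libraries, with -1.20 ± 0.34 (edgeR adjusted p = 0.090), which was not called. The difference between both kinds of nuclei was not called for this gene.

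ATRNL1li6, annotated as a copy of an attractin-like gene, gave 9, 34 and 136 UMIs in the selected nuclei of Control 1, 2 and 3 and 1, 2 and 0 UMIs in those of ALP 1, 2 and 3 (edgeR adjusted p = 0.020). The intergenic feature LINC-UBE2E1-7 gave 18, 174 and 561 UMIs in control and 3, 4 and 1 UMIs in ALP libraries (edgeR adjusted p = 0.020). Both were near 0 in all ALP libraries and present in all control libraries. The same was seen in the other excitatory nuclei, where ATRNL1li6 gave 214, 103 and 188 UMIs in control and 2, 3 and 3 in ALP libraries and was the only 1 of 19167 features called (0.00522%). LINC-UBE2E1-7 gave 384, 629 and 1390 UMIs there in control and 1, 16 and 0 in ALP libraries.

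LINC-C21ORF62-3 was the only feature called higher in ALP TSs. It stood at 0, 3.59 and 3.11 CPM in control, from 0, 4 and 11 UMIs, and at 41.2, 52.1 and 54.1 CPM in ALP libraries, from 73, 81 and 63 UMIs. The fitted log2 fold change was 4.08 ± 0.42 (edgeR adjusted p = 0.020). With at least 2 UMIs of the rule genes, LINC-C21ORF62-3 gave 2.85 and was not called (edgeR adjusted p = 0.072). In the other excitatory nuclei it was at 0.405, 2.57 and 13.8 CPM in control and 13.5, 13.1 and 3.01 CPM in ALP libraries, where the groups overlapped. Whether antisense and intergenic features were counted by strand is not stated, so their values are uncertain.

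**Figure D4:**
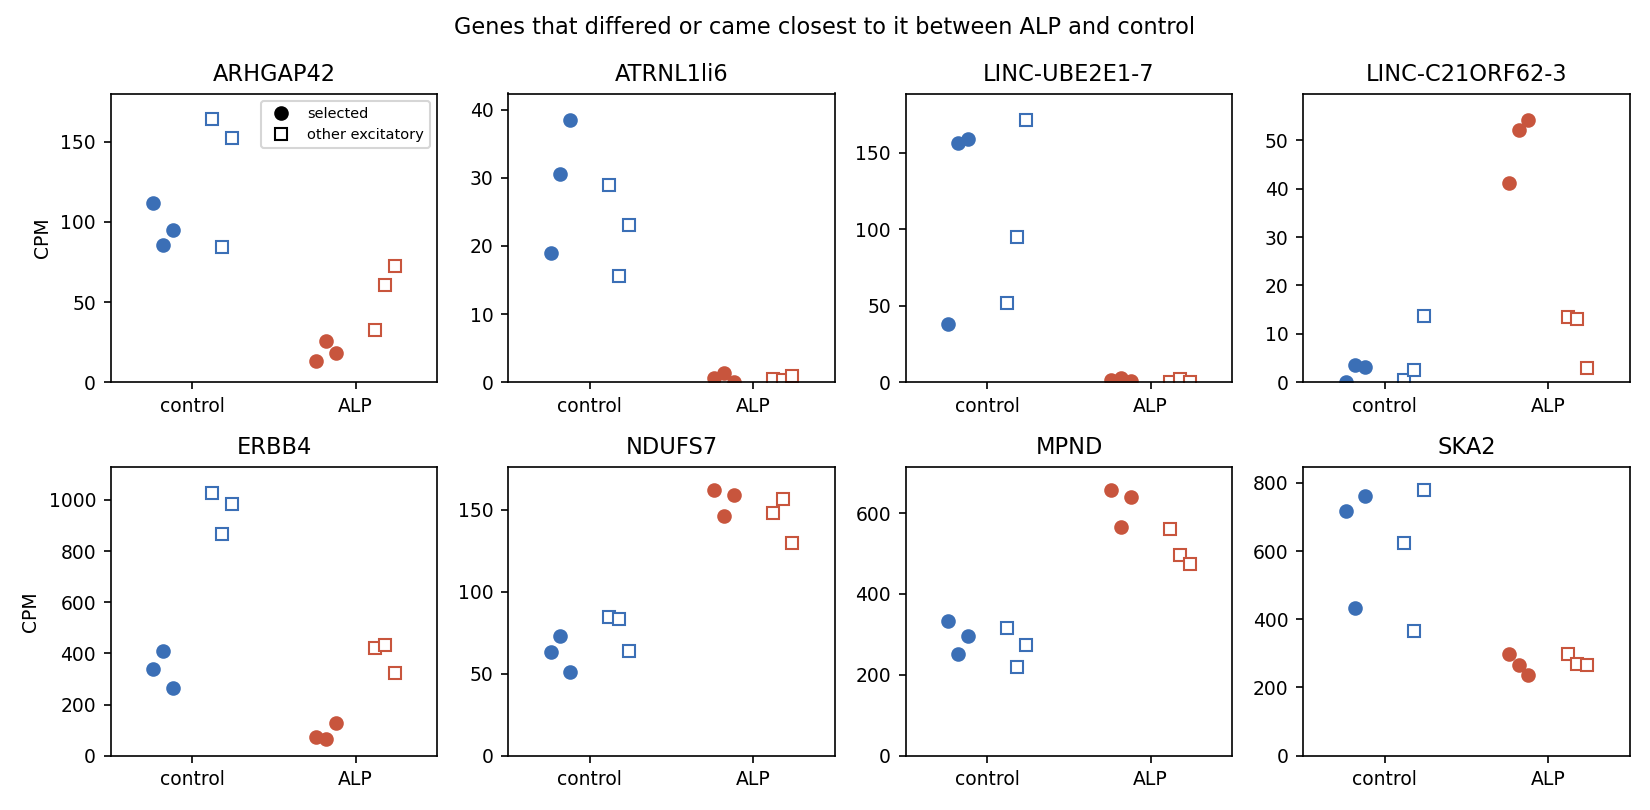
Each panel plots CPM of 1 gene from 0 upward, with filled circles for the selected and open squares for the other excitatory nuclei of each library, blue for control and red for ALP. The 4 genes of the upper row were called by edgeR in the selected nuclei, while ERBB4, NDUFS7, MPND and SKA2 in the lower row were not. The groups do not overlap in either kind of nucleus for the lower row, and DESeq2 called these genes in the selected nuclei.

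The named genes nearest to the threshold without overlap were not called by edgeR at the settings used here. DESeq2 called all of them, including ERBB4, SKA2 and PGR below, at adjusted p-values from 5.9e-09 to 0.0069. Without Control 1 edgeR also called all of them, and with at least 4 UMIs of the rule genes all but ERBB4. With antisense and intergenic features left out it called TSORFli2154, NDUFS7, ERBB4 and PGR. NDUFS7, a subunit of respiratory complex I, was at 63.4, 72.8 and 50.9 CPM in control and 162, 146 and 159 CPM in ALP libraries (1.34 ± 0.19, edgeR adjusted p = 0.057). MPND, a protein with a deubiquitinase-like domain, was at 332, 252 and 295 CPM in control and 658, 565 and 640 CPM in ALP libraries (1.09 ± 0.16, edgeR adjusted p = 0.057). Both separated the groups fully. TSORFli2154, RPL7Ali3 and NCAPD2, a condensin subunit, had adjusted p-values of 0.054, 0.057 and 0.063 with log2 fold changes of 1.33, 1.43 and 1.10. In the other excitatory nuclei NDUFS7 and MPND gave 0.98 and 1.00, not called there either.

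ERBB4, the neuregulin receptor, was at 338, 410 and 263 CPM in control and 73.4, 64.3 and 127 CPM in ALP libraries (-1.94 ± 0.28, edgeR adjusted p = 0.057). It was far more abundant in the inhibitory nuclei, at 6388 CPM, and in the other excitatory nuclei it stood at 1027, 865 and 983 CPM in control and 419, 432 and 322 CPM in ALP libraries. The part of inhibitory RNA in these values was not tested, while ADARB2, which is also abundant in inhibitory nuclei, overlapped between the groups in the selected nuclei at 82.5, 60.2 and 228 CPM and 44.0, 68.2 and 165 CPM. In the other excitatory nuclei ADARB2 did not overlap, at 547, 349 and 591 CPM in control and 226, 265 and 279 CPM in ALP libraries. SKA2, a spindle and kinetochore protein, was at 717, 434 and 762 CPM in control and 298, 264 and 235 CPM in ALP libraries (-1.26 ± 0.22, edgeR adjusted p = 0.067). PGR, the progesterone receptor, was low throughout, at 19.0, 9.88 and 20.1 CPM in control and 1.13, 1.93 and 0.859 CPM in ALP libraries (-3.55 ± 0.52, edgeR adjusted p = 0.057). L1RE1li184 and RPL6li251 were the remaining ones, with adjusted p-values of 0.063 and 0.067.

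No gene of the field and function lists was called between ALP and control at the settings used here. Of 208 list genes tested outside the rule 0 were called, 20 had an unadjusted p under 0.05 (9.62%, beside 18.5% of all features), and 23 did not overlap between groups (11.1%, beside 22.8%). Both shares of all features include antisense and intergenic features, so that they are not a like background. Of the 8443 genes with an identifier of the annotation, 772 were higher and 349 lower at an unadjusted p under 0.05. DESeq2 called 2 list genes, ST18 and CACNB2, both lower in ALP, and edgeR called 5 without Control 1, with CALB1, EPHA5 and NEUROD6 higher and ST18 and BSN lower. Without the count filter edgeR called 8 with all libraries, 6 higher and 2 lower, namely CACNB2, CALB1, CDK5, COX4I1, GRM8, NEUROD6, PSENEN and ST18, and in the nuclei with TMC1 or SAXO1 it called BSN alone. Their median log2 fold change was 0.03 beside 0.01 over all features. The CA3 list had a median of -0.08 with 6 genes tested, and NECTIN3 a log2 fold change of 0.04 ± 0.36. ST18 had the smallest adjusted p of the list genes, 0.067, at 76.1, 126 and 88.4 CPM in control and 48.5, 36.7 and 43.8 CPM in ALP libraries. DLGAP1, a postsynaptic scaffold that the study names, stood at 313, 232 and 297 CPM in control and 177, 163 and 168 CPM in ALP libraries (-0.72 ± 0.16, edgeR adjusted p = 0.070). CACNB2, a calcium channel subunit, and BSN, a protein of the presynaptic active zone, gave -1.16 ± 0.28 and -0.88 ± 0.21 with edgeR adjusted p-values of 0.076 and 0.078.

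Amyloid and tau genes overlapped between the groups for most members. APP, the amyloid precursor, was at 383, 467 and 493 CPM in control and 472, 535 and 429 CPM in ALP libraries, and MAPT, which encodes tau, at 277, 386 and 394 CPM and 382, 371 and 447 CPM. Of 12 such genes 2 had an unadjusted p under 0.05, PSENEN, a gamma-secretase subunit (1.38 ± 0.40, edgeR adjusted p = 0.11), and CDK5, a tau kinase (0.67 ± 0.22, edgeR adjusted p = 0.15). The 9 oxidative phosphorylation genes had a median of 0.62, of which 6 were above 0 and COX4I1 alone had an unadjusted p under 0.05. The 5 immediate-early genes had a median of 0.79, with BDNF and ARC under that unadjusted p. The 9 primary cilium genes were all above 0, with a median of 0.28 (all features 0.01), 2 under that unadjusted p and 0 called.

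Split by kind of feature, the 8443 genes with an identifier of the tree shrew annotation had a median log2 fold change of 0.07, with 772 higher and 349 lower at an unadjusted p under 0.05. Fitted without the other features, 8428 such genes had a median of 0.0011, with 716 higher and 567 lower. The 1834 antisense features had a median of -0.68, with 51 higher and 687 lower at that level, and the 760 intergenic ones a median of -0.08. In the other excitatory nuclei the antisense features had a median of -0.75. Without Control 3 the antisense median in the selected nuclei was -0.37.

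To compare the ALP effect itself between the selected and the other excitatory nuclei, an interaction was fitted, and 13 of 19591 features were called (0.0664%), 11 with a higher (0.0561%) and 2 with a lower (0.0102%) effect in the selected nuclei. PROSER2 and ELAVL2, a neuronal RNA-binding protein, were called with each library left out, and GRIK2, a kainate receptor subunit, with 5 of 6. Of the 11 features with a higher effect, 9 were more abundant in the inhibitory nuclei than in any other set compared, and all 9 had an ALP effect below 0 in the other excitatory nuclei. ELAVL2 was at 223 CPM in the selected, 140 CPM in the other excitatory and 547 CPM in the inhibitory nuclei, pooled over libraries, and TMTC2 at 27.2, 91.1 and 638 CPM. ADARB2 moved with the ALP group in the other excitatory nuclei. There the 8 genes of the interneuron list, led by ADARB2 and with 3 genes at 0 (GAD1 by choice, GAD2 and SLC32A1), summed to 577, 390 and 620 CPM in control and 258, 294 and 291 CPM in ALP libraries, without overlap. This separation rested on ADARB2, since the list without it summed to 30.1, 40.7 and 29.6 CPM in control and 32.1, 29.3 and 11.4 CPM in ALP libraries, with overlap. In the selected nuclei the sums of the list given above overlapped. Inhibitory nuclei made up 18.5%, 20.6% and 21.5% of nuclei above 2500 genes in control and 10.7%, 9.87% and 7.73% in ALP libraries. The part of inhibitory RNA in the 9 differences was not tested. PROSER2 and LINC-C21ORF62-3 were not among the 9, and PROSER2 was at 43.6 CPM in the selected and 6.63 CPM in the inhibitory nuclei.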

How the data were processed

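The authors deposited raw counts of UMIs per feature and barcode for 6 libraries, made with Cell Ranger on the TreeshrewDB genome, whose build is not given in the sources used here. The submitters' processing notes name version 3.1.0 and the matrix headers 6.1.2, and the use of strand is not stated. The annotation held 83605 features. Nuclei were chosen by the rule above, and members, lists and tests were chosen with earlier results of these data known. Library depth was 19182981 to 35898940 UMIs, and 463873 to 3519355 UMIs entered each sum of selected nuclei.

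UMIs were summed per library for at least 10 nuclei and compared in edgeR 4.0.16 (R 4.3.3, TMM, quasi-likelihood, filterByExpr with a minimum count of 10, Benjamini-Hochberg adjustment over all features). The libraries, 3 per group, were compared without a covariate, and nuclei of the same libraries with library as a block. The comparison with other excitatory nuclei and the difference of ALP effects were added after seeing the data. CPM per library carry 1 TMM factor per library, and pooled CPM carry none. PROX1 nuclei held at least 3 PROX1 UMIs, and TSHZ2-bearing nuclei at least 3 of FIBCD1 and TSHZ2, with at most 1 UMI of each other choice. Inhibitory nuclei held at least 6 UMIs of ADARB2 and NXPH1, a choice made after seeing the data. Shares were compared by exact permutation over 20 arrangements with scipy 1.17.1. Clusters used scanpy 1.11.5 and leidenalg 0.10.2 (2000 genes, 30 principal components, 20 neighbours, resolution 1), and doublets were scored against simulated pairs.

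Against both sets, the named genes were the 15 highest and 10 lowest of those called, by the smaller fold change. They lay on the same side in every library compared. The limit was a mean of 50 CPM, in the selected nuclei for the highest and in each set for the lowest. Between ALP and control they were the called genes and the 5 nearest in each direction without overlap. Antisense and intergenic features were left out unless they led by a wide margin. The list genes are described by counts and medians. Alternatives were DESeq2 1.42.0, upper-quartile scaling, no count filter, replicate or library blocks, each library left out, and other limits for the selection. On simulated counts the tests recovered most large and few small changes, and in the ALP comparison the share of false calls was above the nominal level. The genes of 7 list names were not found in the annotation and were not used here. Some list genes are not reported here.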

Additional observations from a re-analysis of the deposited data

Results flagged for a closer look

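The ALP effect differed between the selected and the other excitatory nuclei for 13 of 19591 features (0.0664%) by an interaction test in edgeR at an adjusted p under 0.05. The values are ALP effects in the selected minus those in the other excitatory nuclei, on the log2 scale. Leaving out each library in turn gave 6 to 40 such features. Of the 11 with a higher effect in the selected nuclei 9 were most abundant in inhibitory nuclei (CUX2, SLC35F4li1, TMCC3, TMTC2, ELAVL2, GRIK2, LINC-RPL6-521, LINC-RPS6-61 and LINC-RPL6-20), and all 9 had an ALP effect below 0 in the other excitatory nuclei, from -1.74 to -0.26. ADARB2, an interneuron marker, was also lower there in ALP libraries, at 226 to 279 CPM against 349 to 591 CPM in control, while the rest of the interneuron list overlapped, and its part was not tested.

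Among named genes, PROSER2 differed by 1.69 ± 0.23 (edgeR adjusted p = 0.0020). It stood at 6.34, 25.2 and 34.2 CPM in control and 62.1, 46.3 and 86.8 CPM in ALP libraries in the selected nuclei, without overlap, and at 3.78, 30.03 and 30.3 CPM and 20.8, 13.5 and 21.97 CPM in the others, with overlap. ELAVL2, a neuronal RNA-binding protein, differed by 0.83 ± 0.13 (edgeR adjusted p = 0.0024), at 154, 194 and 228 CPM in control and 216, 317 and 221 CPM in ALP libraries in the selected nuclei. Both were called with each of the 6 libraries left out. GRIK2, a kainate receptor subunit, differed by 0.58 ± 0.10 (edgeR adjusted p = 0.0073), with an effect of 0.24 in the selected and -0.26 in the other nuclei, and was called in 5 of 6. CUX2, a transcription factor of upper cortical layers, differed by 1.96 ± 0.38, with ALP 3 at 37.8 CPM and the other 5 libraries between 8.48 and 15.3 CPM in the selected nuclei, and was called in 3 of 6. TMCC3 differed by 1.26 ± 0.21, TMTC2 by 1.19 ± 0.21 and SLC35F4li1 by 1.34 ± 0.26, called in 4, 4 and 2 of 6.

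Of the intergenic features LINC-C21ORF62-3 differed by 3.90 ± 0.58 and LINC-RPL6-521 by 1.89 ± 0.29, each called in 5 of 6. LINC-RPS6-61 differed by 1.52 ± 0.28 and LINC-RPL6-20 by 1.25 ± 0.22, each called in 3 of 6.

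TTR, the transthyretin of choroid plexus, differed by -4.36 ± 0.66, with 1390 of its 1702 UMIs in the other excitatory nuclei coming from ALP 1, and was called in 4 of 6. The antisense feature DLC1-AS-7 had a fitted difference of -10.72 ± 1.83, which depends on the prior count. It gave 10, 38 and 18 UMIs in the selected nuclei of Control 1, 2 and 3 and 0 in each ALP library, beside 1, 3 and 1 and 3, 2 and 4 UMIs in the other nuclei, and was called in 3 of 6.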

How the results depend on the processing

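The count of 4 features between ALP and control depended on the processing. It was 260 with DESeq2 (74 higher, 186 lower), 1343 without a count filter (460 higher, 883 lower), 80 with at least 4 UMIs of the 3 rule genes, 2 with at least 2, and 9 with no UMI of FIBCD1, TSHZ2 or PROX1. Leaving out 1 library gave 0 to 444. It was 0 without Control 3, ALP 1 or ALP 3, 444 without Control 1 (108 higher, 336 lower), 132 without Control 2 and 10 without ALP 2. Alternatives added after seeing the data gave 103 in nuclei with TMC1 or SAXO1 and 1 in the other excitatory nuclei. Control 1 gave 37 nuclei and 463873 UMIs, which limits what it can show. With the replicate number as a block the count was 1. The labels do not say that the numbers pair the animals. Same-numbered libraries correlated at -0.016, 0.072 and -0.14, and unlike-numbered ones between -0.088 and 0.113. With 3 libraries per group these values cannot decide whether the numbers pair.

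Against the PROX1 nuclei 778 became 481 with DESeq2, 311 without the library block and 1275 with all libraries holding any such nucleus (added after seeing the data). Against the TSHZ2-bearing nuclei 870 became 418 without the library block, and against the other excitatory nuclei 925 became 130. Leaving out libraries gave 588 to 808, 667 to 902, and for the 13 features with different ALP effects 6 to 40 (6 without ALP 1, 32 without Control 1, 40 without Control 2, 29 without ALP 2 and 20 without ALP 3). The share in the first cluster was 35.2% at resolution 2, where a second cluster held 19.1% of the selected nuclei and 318 of its 366 nuclei came from Control 3. There the first cluster held 5.41%, 32.1% and 8.21% of the selected nuclei in control and 45.6%, 64.2% and 54.0% in ALP libraries, without overlap. Of all nuclei above 2500 genes, selected or not, it held 6, 78 and 48 in control and 159, 240 and 113 in ALP libraries. The second held 0%, 23.8% and 52.5% in control and 0%, 0.676% and 0% in ALP libraries. The causes were not tested.

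All alternatives kept the share of selected nuclei higher in ALP by mean, and no tested value changed sign. CKMT2 lost its call against the PROX1 nuclei with DESeq2, without the library block and without ALP 2, and L1RE1li231, TSORFli686, COBL and GRM3 lost theirs in at least 1 setting.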

Other observations

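The 98 nuclei that met the rule but held 2500 genes or fewer came mostly from 2 libraries, with 4, 1 and 3 in Control 1, 2 and 3 and 32, 4 and 54 in ALP 1, 2 and 3. They made up 28.3% of the nuclei meeting the rule without a gene minimum in ALP 3, 14.1% in ALP 1 and 2.63% in ALP 2, and 1.06% to 9.76% in the control libraries, so that the groups overlapped. Pooled over libraries, KCNQ5 was at 585 CPM and NECTIN3 at 75.2 CPM in them, beside 1764 and 195 CPM in the selected nuclei. Within ALP 1 and ALP 3 alone, KCNQ5 was at 552 CPM and NECTIN3 at 77.7 CPM, beside 1109 and 143 CPM in the selected nuclei of the same libraries, and HMG20B at 57.3 beside 77.5 CPM.

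Some antisense and intergenic features were also higher in the selected nuclei than in both sets, here given by the smaller of both log2 fold changes. RPL6-AS-48 was higher by 2.42, VN1R3-AS-1 by 2.40 and LINC-RPL6-506 by 2.37.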
